A study of Homo sapiens with 2 samples.

Results

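NeuroD1 binding at the clustered histone genes was examined in IMR-32, a MYCN-amplified line derived from neuroblastoma and of wild-type genotype per the labels. The set takes every protein-coding RefSeq gene whose symbol starts with H1-, H2AC, H2BC, H3C or H4C, which gave 74 of 20033 protein-coding genes on the chromosomes of GRCh38.p14. A gene was counted as having a peak when a NeuroD1 peak lay in the gene or up to 3 kb from either end. Of the 74 genes, 55 lie on chromosome 6, 13 on chromosome 1 and 6 on other chromosomes. The series holds 1 ChIP library, made with a NeuroD1 antibody, and 1 input library without an antibody, which was not analysed here. Without a replicate, values describe the 1 ChIP library alone and the intervals cover counting error only. The supplementary methods of the study name an H3K27Ac antibody for ChIP-seq, and the list was used as the NeuroD1 list it is labelled to be.

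Histones H2A, H2B, H3 and H4 form the core around which DNA is wrapped, and H1 binds the linker DNA between cores. Most of the genes in the clusters are replication-dependent: they have no introns, are transcribed in S phase and give mRNAs that end in a stem-loop in place of a poly(A) tail. Their transcription takes place in the histone locus body, a nuclear compartment organised by NPAT. NeuroD1 is a basic helix-loop-helix transcription factor that pairs with E-proteins and binds E-boxes, short sites with the letters CANNTG, of which CAGATG and CAGCTG are forms known for NeuroD1.

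A NeuroD1 peak was found at 4 of the 74 histone genes (5.41%, 95% exact Clopper-Pearson interval 1.49% to 13.3%), and the share over all protein-coding genes was 21.4%. These 4 genes, H4C4, H4C11, H2AC17 and H2BC17, all lie on chromosome 6 and share 3 of the 6183 peaks of the list. H2AC17 and H2BC17 were counted through the same peak. Neighbouring genes are therefore not independent, which the intervals for the histone genes do not take into account. On chromosome 6, 4 of 55 genes had a peak (7.27%, 2.02% to 17.6%). On chromosome 1, 0 of 13 had a peak, with an interval from 0% to 24.7%. None of the 6 genes on other chromosomes had a peak, with an interval up to 45.9%.

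The promoter sequences of both H4 genes whose promoter window overlapped a peak are shown with those of 3 histone genes that had no peak in this window. H4C5 and H4C12 are the H4 genes that follow H4C4 and H4C11 on the chromosome, and H2AC17 is the gene of the third peak, which lay outside its promoter. Each is the RefSeq sequence of GRCh38.p14 from 250 bases before the gene start to 30 bases after it, read 5′ to 3′ on the strand of the gene, with every E-box (CANNTG) in capitals. The stretches are chr6:26189083-26189362 on the minus strand for H4C4, chr6:26204360-26204639 on the plus strand for H4C5, chr6:27823842-27824121 on the plus strand for H4C11, chr6:27831531-27831810 on the minus strand for H4C12 and chr6:27893156-27893435 on the minus strand for H2AC17.
H4C4: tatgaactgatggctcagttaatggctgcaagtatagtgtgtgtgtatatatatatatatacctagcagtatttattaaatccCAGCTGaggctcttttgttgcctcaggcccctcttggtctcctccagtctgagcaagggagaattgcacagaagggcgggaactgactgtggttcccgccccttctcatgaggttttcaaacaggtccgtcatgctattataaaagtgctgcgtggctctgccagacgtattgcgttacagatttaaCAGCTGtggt
H4C5: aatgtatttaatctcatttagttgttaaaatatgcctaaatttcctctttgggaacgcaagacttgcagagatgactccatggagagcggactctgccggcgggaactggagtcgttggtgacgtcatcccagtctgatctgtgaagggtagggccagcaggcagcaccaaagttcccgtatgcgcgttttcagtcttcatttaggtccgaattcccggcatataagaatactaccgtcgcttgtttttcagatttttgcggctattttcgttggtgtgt
H4C11: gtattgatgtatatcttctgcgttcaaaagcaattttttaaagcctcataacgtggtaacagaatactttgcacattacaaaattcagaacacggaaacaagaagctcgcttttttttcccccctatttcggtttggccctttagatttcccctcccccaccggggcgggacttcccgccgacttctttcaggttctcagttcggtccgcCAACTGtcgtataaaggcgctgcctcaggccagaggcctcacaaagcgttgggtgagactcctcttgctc
H4C12: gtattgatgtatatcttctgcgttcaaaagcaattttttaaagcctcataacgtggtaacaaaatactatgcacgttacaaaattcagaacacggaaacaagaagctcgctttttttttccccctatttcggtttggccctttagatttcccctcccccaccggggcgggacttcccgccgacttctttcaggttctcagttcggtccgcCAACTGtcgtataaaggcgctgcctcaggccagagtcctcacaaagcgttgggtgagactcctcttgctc
H2AC17: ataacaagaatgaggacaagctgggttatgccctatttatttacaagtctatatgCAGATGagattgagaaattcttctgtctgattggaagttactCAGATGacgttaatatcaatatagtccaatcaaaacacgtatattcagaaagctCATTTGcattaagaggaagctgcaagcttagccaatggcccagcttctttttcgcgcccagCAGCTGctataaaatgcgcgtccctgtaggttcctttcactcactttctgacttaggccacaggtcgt

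The H4C4 peak was the strongest of the 3 and covered the start of the gene. It lay at chr6:26188999-26189248, overlapped the first bases of H4C4 (chr6:26188710-26189112, minus strand) and was 250 bp wide. Its fold enrichment, which is the pileup of ChIP reads plus 1 divided by the local background plus 1, was 11, with a −log10 q of 16.6. At its highest point the peak held 22 reads (exact 95% Poisson limits, 13.8 and 33.3), where 1.05 would be counted from background. At this background, the limits of the read count give fold enrichments of 7.08 and 16.4. Among 6183 peaks it took rank 694 when ordered by fold enrichment and rank 964 when ordered by q. The summit lay 5 bp upstream of the start, and the peak reached from 136 bp upstream to 113 bp downstream. The H4C4 sequence holds 2 copies of CAGCTG. The first base of one copy is 167 bases before the start, outside the peak. The other copy takes up bases 21 to 26, counted with the start as base 1, and its middle is 28 bp from the summit, inside the peak. A TATAAA element, to which the basal transcription machinery binds, begins 29 bases before the start and also lies inside the peak.

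The peak at H4C11 was weaker and lay upstream of the gene. It was at chr6:27823802-27823965, ended 127 bp before H4C11 (chr6:27824092-27824480, plus strand) and was 164 bp wide. The fold enrichment was 5.79 at a −log10 q of 4.24, and its summit held 11 reads (5.49 to 19.7) at a background of 1.04. The limits of the read count give fold enrichments of 3.14 and 9.97, a range that overlaps that of the H4C4 peak. The read counts of the 2 peaks were not tested against each other. It took rank 4499 by fold enrichment and rank 5103 by q. Its summit lay 198 bp upstream of the start and the peak began 290 bp upstream. The single E-box of the H4C11 sequence, CAACTG, begins 40 bases before the start and lies outside the peak, and the 124 bases of the sequence that lie in the peak hold no CANNTG.

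H4C12, the neighbouring H4 gene, had no peak within 3 kb, although its promoter is nearly the same sequence. Over the 280 bases shown, H4C11 and H4C12 were identical at 275 positions (98.2%). Of the 124 bases that lie in the H4C11 peak, 120 were identical. Among stretches of 50 bases in the promoter windows (the 300 bases from 250 before to 50 after a gene start), 37.5% of those in the H4C11 window also occur in the H4C12 window. How reads that match both copies were treated is not given in the sources used here, and the part this plays in the H4C11 peak and in the lack of a call at H4C12 was not tested.

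The third peak lay beside the divergent pair H2AC17 and H2BC17, which encode H2A and H2B and whose promoter windows overlap. It was at chr6:27895171-27895316, 146 bp wide, which is the narrowest width in the list. The peak began 1280 bp beyond the end of H2BC17 (chr6:27893425-27893891, plus strand) and 1986 bp upstream of the start of H2AC17 (chr6:27892699-27893185, minus strand). The fold enrichment was 6.21 at a −log10 q of 7.32. Its summit held 18 reads (10.7 to 28.4) at a background of 2.0, and the limits give fold enrichments of 3.82 and 9.63. The peak took rank 4057 by fold enrichment and rank 3154 by q. No other protein-coding gene lay within 3 kb of any of the 3 peaks, and RNU7-26P, a pseudogene of the U7 small nuclear RNA, lay 2190 bp from this peak. The H2AC17 promoter itself, without a peak, holds 2 copies of CAGATG and 1 of CAGCTG.

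**Figure D1:**
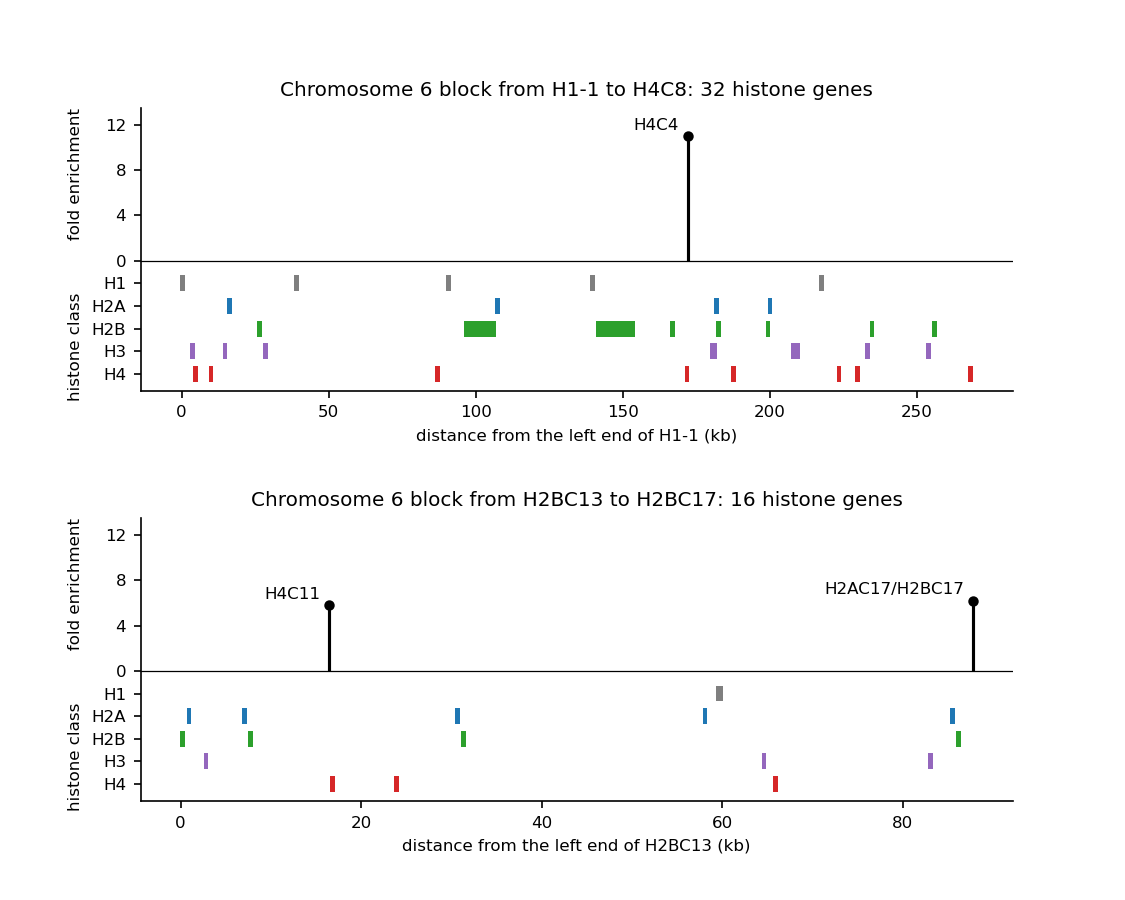
Histone genes of the 2 large chromosome 6 blocks (bars, by class; genes too short to see are drawn at a minimum width) and the fold enrichment of the NeuroD1 peaks at them (black stems), against the distance in kb from the first gene of each block. The block from H1-1 to H4C8 carries 1 peak, at H4C4 (11), and the block from H2BC13 to H2BC17 carries 1, at H4C11 (5.79). The peak beside H2AC17 and H2BC17 (6.21) begins 1280 bp beyond the end of the latter block.

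On chromosome 6 the histone genes fall into 4 blocks when neighbours more than 200 kb apart are split. The block of H2AC1 and H2BC1 (chr6:25726063-25727345) had no peak at its 2 genes, which lay 266 kb and 265 kb from the nearest peak. In the block from H1-1 to H4C8 (chr6:26017032-26285534, 269 kb), 1 of 32 histone genes had a peak. The block from H2BC11 to H2AC12 (chr6:27132316-27147562) had none at its 5 genes. The block from H2BC13 to H2BC17 (chr6:27807479-27893891, 86.4 kb) had a peak at 3 of 16 genes. The members nearest to the limit of 3 kb were H2AC17 on the inside, at 1986 bp, and H3C12 on the outside, at 4345 bp.

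Across chromosome 6 the median distance from a histone gene to the nearest peak was 29.4 kb, with a range from 0 to 487 kb, and it was 94.9 kb over all protein-coding genes. Histone genes of a block are close together and often share the same nearest peak, so their distances are not independent and rest on few peaks. The farthest were H2AC12, at 487 kb, and H4C9, at 479 kb. The 19 other protein-coding genes between H2AC1 and H2BC17 share the region with the histones, and 2 of them had a peak (10.5%, 1.30% to 33.1%). These were TRIM38, a ubiquitin ligase gene, with a fold enrichment of 5.19, and the zinc finger gene ZNF322, with 6.28. The whole stretch of 2.17 Mb from H2AC1 to H2BC17 was overlapped by 4 peaks, or 1.85 per Mb, against 2.30 per Mb over chromosome 6. The stretch ends with H2BC17, so the 4 leave out the histone peak that begins 1280 bp beyond that gene. Where the stretch is cut therefore changes this density. The median implied background of the 392 chromosome 6 peaks was 1.53, and it was 1.31 over the whole list.

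On chromosome 1, no member came close to a peak. The block from H2BC18 to H2AC21 (chr1:149782689-149887965, 105 kb) holds 11 histone genes and no peak, and the 2 other protein-coding genes inside it had none either. The pair H2AC25 and H2BC26 (chr1:228457364-228458558) lay nearest to a peak, at 29.0 kb and 28.3 kb, and the median distance over the 13 genes was 297 kb. Several of these genes lie in copies of the same sequence. The H4C14 and H4C15 windows shared 100% of their stretches of 50 bases, H2AC18 and H2AC19 shared 99.6%, and H3C14 and H3C15 shared 98.4%. A read that falls within such a stretch cannot be assigned to 1 copy by its sequence, and the part this plays in the lack of calls at these 6 genes was not tested. Of the 54 windows on chromosome 6, 6 had a shared stretch, the most being those of H4C11 and H4C12. The 6 genes on other chromosomes lay 25.9 kb to 261 kb from a peak, with H1-8, the oocyte linker histone, nearest and H1-10 farthest.

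**Figure D2:**
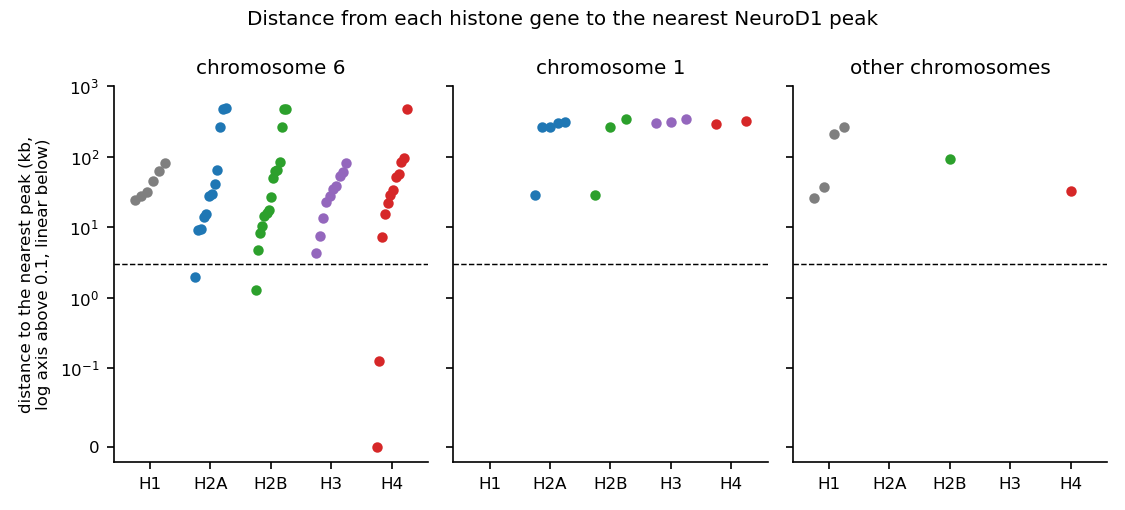
Distance in kb from each of the 74 histone genes (points, by class, in rising order within a class) to the nearest NeuroD1 peak, on an axis that is logarithmic above 0.1 kb and linear below, with the 3 kb limit dashed. On chromosome 6, 4 genes lie under the limit, and on chromosome 1 the nearest gene is 28.3 kb away.

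By class of protein, a peak was found at 2 of 15 H4 genes, 1 of 17 H2A genes and 1 of 19 H2B genes. It was found at 0 of 13 H3 genes and 0 of 10 H1 genes. The share over all protein-coding genes was 21.4%. The H2A gene, H2AC17, and the H2B gene, H2BC17, were counted through the same peak, which lay outside both. The interval for the H4 genes was 1.66% to 40.5% and that for the H3 genes was 0% to 24.7%, so the classes cannot be ordered from these counts. Both peaks that touched a histone promoter window were at H4 genes, in 2 of 13 H4 windows (15.4%, 1.92% to 45.4%). The share over all promoter windows of protein-coding genes was 11.1%, which lies within this interval. Nearly all H4 genes encode the same protein. No H3 gene had a peak, and H3C12 was the nearest, at 4.35 kb. The linker histone genes H1-1 to H1-6 lie on chromosome 6, at 24.3 kb to 80.9 kb from a peak.

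Histone genes are short, with a median length of 496 bp against 24130 bp over all protein-coding genes, and the part of gene length in the share with a peak was not tested. Of the 466 other protein-coding genes of up to 1 kb, 17 had a peak (3.65%, 2.14% to 5.78%), and the interval of the 74 histone genes overlaps this one. The promoter windows have the same length for every gene. Of 72 promoter windows of 67 histone genes, 2 overlapped a peak (2.78%, 0.338% to 9.68%), and the share over all 22198 promoter windows of protein-coding genes was 11.1%. The windows of divergent gene pairs overlap each other and are not independent. Among windows of other genes of up to 1 kb, 4 of 351 overlapped a peak (1.14%).

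A list of 10 genes that encode histone variants was set beside the clusters. The list is a selection made with earlier results of these data known, so its share is a description and not a test. Most of these variants are made throughout the cell cycle from single genes outside the clusters. With the same rule, 6 of 10 had a peak (60.0%, 26.2% to 87.8%), against 21.4% of all protein-coding genes. Of the 13 promoter windows held for 9 of them, 8 overlapped a peak (61.5%, 31.6% to 86.1%), against 11.1% of all promoter windows. Windows of the same gene can be overlapped by the same peak and are not independent, which the interval does not take into account. The variant genes have a median length of 6066 bp. H2AZ2 had a fold enrichment of 10.6 and H2AZ1 of 6.75, and both encode H2A.Z, a variant found at promoters. H3-3B had 10.001 and H3-3A had 8.04, each with 2 peaks, and both encode H3.3. CENPA, the H3 variant of centromeres, had 9.79. H2AX, the variant that is phosphorylated at DNA breaks, had 9.64. H2AJ, H3-5, MACROH2A1 and MACROH2A2 had no peak. The fold enrichment of 11 at H4C4 exceeded the highest of these, 10.6, by less than its counting interval.

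Genes of the histone locus body and of histone mRNA processing had a peak in 4 of 16 cases (25%, 7.27% to 52.4%). CPSF3, which cuts histone pre-mRNA, had a fold enrichment of 11.2 and its partner CPSF2 had 8.20. CDK2, the kinase that activates NPAT with cyclin E, had 9.98. SLBP, which binds the stem-loop of histone mRNA, had 6.27. NPAT, CASP8AP2, LSM10, LSM11 and HINFP, the factor that binds H4 promoters, had no peak. Among histone chaperones, which carry histones to and from DNA, 5 of 20 had a peak (25%, 8.66% to 49.1%). These were ASF1A with 10.5, NAP1L1 with 10.1, HIRA with 9.16, CHAF1A with 9.05 and ASF1B with 7.52. The intervals of both lists include the 21.4% of all protein-coding genes. Of their promoter windows, 3 of 14 (21.4%, 4.66% to 50.8%) overlapped a peak for the locus body and processing genes and 5 of 23 (21.7%, 7.46% to 43.7%) for the chaperones, and both intervals include the 11.1% of all windows. Some of these windows belong to the same gene.

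E-boxes were found in a similar share of histone promoter windows and of all promoter windows. CANNTG was found in 49 of 72 histone windows (68.1%, 56.0% to 78.6%) and in 65.1% of all windows, counted on both strands. CAGATG, read on either strand, or CAGCTG was found in 21 histone windows of 19 genes (29.2%, 19.0% to 41.1%) against 27.6% of all windows. Of these 21 windows, 1 overlapped a peak, that of H4C4, and 20 did not. Over all protein-coding genes, 612 of the 6137 windows with either form overlapped a peak, so most such windows had none there too. No chromosome 1 window held either form. The windows with both forms were those of the overlapping pair H2AC17 and H2BC17.

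The known elements of histone promoters were frequent in the same windows. CCAAT, read on either strand, was found in 83.3% of histone windows against 34.7% of all windows. TATAAA was found in 63.9% against 9.47%. ATTTGCA, the core of the octamer that OCT1 binds in H2B promoters, was found in 15 of 20 H2B windows, in 11 of 16 H2A windows and in 3.50% of all windows. CCAAT was found in all 13 H3 windows and in 3 of 13 H4 windows, and neither H4C4 nor H4C11 holds it. GTCCG, part of the H4 promoter element called site II, was found in 12 of 13 H4 windows and in 34.9% of all windows, and was searched after the sequences had been seen. It begins 43 bases before the start in H4C4, inside the peak, and 46 bases before the start in H4C11, outside the peak. It begins 46 bases before the start in H4C12 and 45 bases before the start in H4C5, both without a peak. A match is a description of the letters and not a measured binding site.

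The 3 histone peaks were set among all 6183 peaks. The list has a median fold enrichment of 6.79 with an upper quartile of 8.68, and a median −log10 q of 7.67. The H4C4 peak lay above both values and the other 2 lay below the median fold enrichment. Of the list, 2089 peaks had the lowest common background of 1.04, and none of these had under 8 ChIP reads at the summit, with a median of 14. A histone gene without a peak can therefore still have had some reads below the level at which peaks were called.

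**Figure D3:**
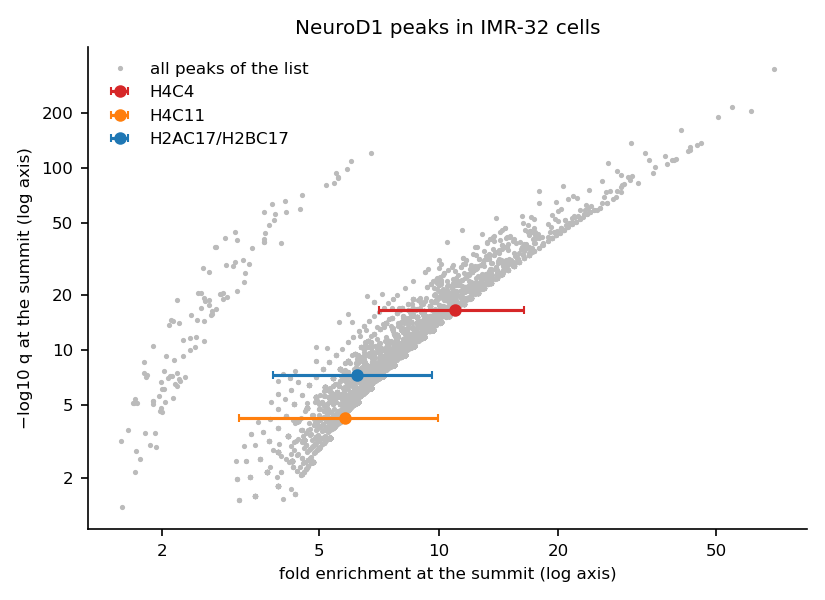
Fold enrichment against −log10 q at the summit, both on log axes, for all peaks of the list (grey) and the 3 at histone genes (coloured), with the fold enrichment that corresponds to the 95% Poisson interval of the reads (bars). The H4C4 peak (11) lies above the upper quartile of 8.68, and those at H4C11 (5.79) and beside H2AC17 and H2BC17 (6.21) lie below the median of 6.79.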

How the data were processed

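The peak list of 1 NeuroD1 ChIP-seq library from IMR-32 was used. The submitters' processing notes name BWA 0.7.17, MACS2 2.2.7 and hg38, with no role for each, while the peak names hold macs3. Neither the control nor the q threshold is given in the sources used here, and the highest q was 0.0414. The authors deposited for each peak the fold enrichment, a ratio of ChIP pileup to local background, and the −log10 p and −log10 q values at the summit. The score that was deposited is the −log10 q, scaled and cut to a whole number, and the last column deposited by the authors is the fold enrichment divided by the width in all 6183 rows.

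Reads and background were solved from the fold enrichment and −log10 p by the Poisson formula of MACS. A weight of 0.98 per read was chosen because it matched all 300 peaks used to find it within 0.02 of −log10 p, and 3 of the 6183 peaks could not be matched. The sequencing depth is unknown. The solver and the gene rule were tested on simulated data. Genes and promoter windows were those of RefSeq GRCh38.p14, which is the build of the files per the labels, and windows were held for 67 of 74 histone genes and for 15842 of 20033 protein-coding genes. Positions count from 1.

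The members and lists were chosen with earlier results of these data known. Every histone gene with a peak is named with its values, as is every listed comparison gene with a peak. No test across replicates was possible, so counts carry exact Clopper-Pearson intervals and reads exact Poisson intervals. Alternatives changed the peak threshold, the distance, the part of the peak that counts, the background genes and the motif. Scripts ran under Python 3.11.15 with scipy 1.17.1, pandas 2.3.3, matplotlib 3.10.9 and numpy 2.4.6.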

Additional observations from a re-analysis of the deposited data

How the results depend on the processing

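The counts of 4 histone genes and 3 peaks were the same with a fold enrichment of at least 5, when the summit was used and when 50% of the peak was required, and were 3 genes and 2 peaks above a −log10 q of 5, since the H4C11 peak lies below it. By construction the number of genes moved with the distance, both in all and on chromosome 6. It was 1 gene and 1 peak (H4C4) with no flank, 2 genes with 1 kb and 11 genes with 10 kb. It was 2 genes when the promoter window had to overlap a peak, an alternative chosen after seeing the data. The count on chromosome 1 was 0 under every alternative run for it. The share of protein-coding genes with a peak was 16.5% for genes no longer than the longest histone gene, 22.6% on chromosome 6 and 20.5% on chromosome 1. It was 3.98% for genes of up to 1 kb, an alternative added later. The longest histone gene, H2BC18, spans 29682 bp. The 11114 genes up to that length have a median of 9752 bp and so are not matched in length to the histone genes, with a median of 496 bp. The share of histone windows with an E-box was 61.1% before the start alone and 29.2% with CAGATG or CAGCTG alone. No paired analysis was possible because the labels give a single immunoprecipitated sample. With 11 to 22 ChIP reads at the 3 summits, the reads limit their order, and no result has a replicate check.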

Other observations

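The E-box forms known for NeuroD1 were counted in the promoter windows of all protein-coding genes, while peaks outside these windows were not examined for motifs. CAGATG or CAGCTG was found in 24.9% of the 2454 windows that overlapped a peak (95% exact Clopper-Pearson interval 23.2% to 26.7%) and in 28.0% of the 19744 that did not (27.4% to 28.6%). For CAGATG alone the shares were 8.23% and 12.7%, and for CAGCTG alone they were 18.7% and 17.9%. CCAAT was found in 49.8% of the windows with a peak and in 32.8% of those without, and TATAAA in 4.56% and 10.1%. Base composition was not matched between the windows, several windows can belong to 1 gene, and the summit of a peak was not required to lie in the window.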
